A study of Mus musculus with 4 samples.

Results

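The heat shock proteins and their Dnaj partners, the genes that encode the general protein-folding chaperones of the cell, were examined in mouse bone marrow stromal cells with and without deletion of Setd2. Members were the rows of the count table typed as messenger RNA whose symbol begins with Hspa, Hspb, Hsp90, Dnaja, Dnajb or Dnajc and a number, together with Hsph1, Hspd1 and Hspe1. This gave 73 of the 44788 rows. By class these were 8 small heat shock genes, 11 Hsp70 genes, 3 Hsp110 genes (Hspa4, Hspa4l and Hsph1), 3 Hsp90 genes, the 2 genes of the mitochondrial chaperonin, and 4 Dnaja, 13 Dnajb and 29 Dnajc genes. The symbol rule also admitted Dnajc19-ps, a pseudogene row, and Hspb11, whose product belongs to the intraflagellar transport machinery of cilia.

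The cells came from Setd2 fl/fl mice of strain C57BL/6J, in which loxP sites flank part of Setd2, the gene of the histone methyltransferase that completes trimethylation of lysine 36 on histone H3. At passage 2 they received a lentivirus carrying GFP, the control, or Cre recombinase, and all of them were held for 4 days in puromycin at 2 µg/ml. The floxed alleles, the virus and the drug were thus common to both groups, and with GFP as the control the effects of Cre and of Setd2 loss cannot be told apart. Each group had 2 libraries, and the labels do not say whether these came from separate cultures or animals. A p-value here thus sets the difference against the spread among 4 libraries that may be technical repeats. For each gene the edgeR test drew that spread largely from the trend over all genes (prior degrees of freedom 27.3, common coefficient of variation 4.73%).

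Hsp70 proteins bind exposed hydrophobic stretches of unfolded proteins in a cycle driven by ATP. Dnaj proteins, through their J domain, deliver clients and trigger ATP hydrolysis, and Hsp110 proteins and BAG proteins release the nucleotide. Hsp90 acts later on kinases and hormone receptors, the chaperonin of Hspd1 (Hsp60) and Hspe1 (Hsp10) folds proteins imported into mitochondria, and small heat shock proteins hold unfolding proteins without using ATP. Under proteotoxic stress the transcription factor Hsf1 forms trimers that bind heat shock elements, inverted repeats of GAA and TTC units, in the promoters of many of these genes. Hspb1 (Hsp25 in the mouse) also binds actin and is regulated by phosphorylation.

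Between 12371994 and 14315903 counts were assigned to genes in each library, of which the members took 0.749% to 0.822%. A count of 3, used as the floor, was worth 0.207 to 0.255 CPM (counts scaled to library size and TMM factor). Setd2 went from 107 and 106 CPM in the GFP libraries to 38.1 and 32.3 CPM in the Cre libraries. The log2 fold change was -1.60 (standard error 0.08, edgeR quasi-likelihood test, adjusted p = 3.65e-15). Without GFP replicate 2 it did not pass, but that fit leaves GFP replicate 1 as the only control and calls were lost across all genes. The Setd2 value kept its sign with any library left out. GFP replicate 2 stood apart by its 18S ribosomal RNA, 7.45% of counts against 1.21% to 2.07% elsewhere. All 9 stromal markers were detected, with a summed level of 15389 to 15529 CPM in GFP and 19365 to 20397 CPM in Cre, of which Col1a1 and Col1a2 made up most. Col1a1, Col1a2, Thy1 and Ly6a were called higher, Cxcl12 was called lower (adjusted p = 0.00513), and 5 of the 9 were below 0. The culture also held macrophage transcripts: all 6 markers were detected, summing to 1867 to 1927 CPM in GFP and 2191 to 2197 CPM in Cre, mostly Lyz2. Lyz2 and Cd68 were called higher, Emr1 was called lower (adjusted p = 0.00293), and Ptprc was also below 0 without passing. In such bulk samples, fewer cells of a type and less RNA per cell cannot be told apart, and the part of the cell mixture in the results was not tested.

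The promoters of the members were searched first for heat shock elements, the sites that Hsf1 binds in many of these genes. RefSeq promoter windows (GRCm38.p6, from 250 bases before to 50 bases after the start site, 300 bases in all) were found for 58 members. The other 15 had no window and were not searched, among them Hspa8, Hspa9, Hsp90aa1 and Hsp90ab1. A 2-unit element was taken as GAANNTTC or TTCNNGAA, each of which reads the same on both strands, and a 3-unit element as the former followed by NNGAA or the latter followed by NNTTC, which are each other's reverse complement and contain the 2-unit forms. GAANNTTC occurred in 7.86% and TTCNNGAA in 8.52% of all 32851 promoter windows, and the 3-unit forms in 0.310% and 0.320%. Counted by gene, 16 of the 58 members (27.6%) held a 2-unit element in at least 1 window, against 17.0% of 27025 genes, and 4 members (6.90%), Hspd1, Hspe1, Hsph1 and Dnajb6, held a 3-unit element, against 0.662%. These counts take Hspd1 and Hspe1 separately, although their 3-unit site is the same stretch on opposite strands. The Hspa1a and Hspa1b windows, near-identical in sequence, are likewise counted apart. The heat-inducible genes Dnajb1 and Hspa4l had a window without an element. Such a match describes the letters and is no evidence of binding, and it does not set the genes that Hsf1 acts on apart.

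The 250 bases before the start sites of Hspb1 (chr5:135887669-135887918, plus strand), the member that rose, and of Hspa1b (chr17:34959239-34959488, minus strand), the classical heat-inducible Hsp70 gene, are shown 5′ to 3′ because both hold the GAANNTTC form, in capitals. In Hspb1 the matches began 117 and 97 bases before the start, and in Hspa1b the match began 104 bases before it.
Hspb1: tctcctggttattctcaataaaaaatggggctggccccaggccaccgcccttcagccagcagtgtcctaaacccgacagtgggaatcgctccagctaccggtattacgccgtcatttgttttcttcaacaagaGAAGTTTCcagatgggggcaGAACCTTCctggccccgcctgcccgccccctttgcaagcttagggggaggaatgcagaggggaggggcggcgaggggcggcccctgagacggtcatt
Hspa1b: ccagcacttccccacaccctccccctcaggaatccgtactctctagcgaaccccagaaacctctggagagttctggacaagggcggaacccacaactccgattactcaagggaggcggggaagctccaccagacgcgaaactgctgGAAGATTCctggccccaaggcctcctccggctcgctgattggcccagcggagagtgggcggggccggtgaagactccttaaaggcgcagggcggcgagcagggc

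The longer elements are shown in 30 bases each, with matched letters in capitals, because the genes that carry them are the reference for the Hspb1 promoter. The element of Hspe1 (chr1:55088053-55088082, plus strand) ran over 18 bases from 89 bases before its start, and on the opposite strand it lies in the promoter window of Hspd1, which is transcribed away from Hspe1. Those of Dnajb6 (chr5:29735844-29735873, plus strand) and Hsph1 (chr5:149636279-149636308, minus strand) ran over 13 bases, from 46 bases before and 15 bases after a start site.
Hspe1: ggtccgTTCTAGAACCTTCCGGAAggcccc
Dnajb6: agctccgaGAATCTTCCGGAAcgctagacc
Hsph1: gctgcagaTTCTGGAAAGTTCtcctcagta

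In length-scaled units, CPM per kb of exon averaged over the 4 libraries, the members ranged from 0 for Dnajc5b and Dnajc5g to 562. The cytosolic Hsp90 gene Hsp90ab1 had that highest level, followed by Hsp90b1, the endoplasmic reticulum Hsp90, at 279, Hspa5 (BiP, the Hsp70 of the endoplasmic reticulum) at 192, the constitutive Hsp70 gene Hspa8 at 142 and the mitochondrial Hsp70 gene Hspa9 at 107 CPM per kb. Hspb1 was the most abundant small heat shock gene, at 69.2 and 62.8 CPM per kb in GFP and 110 and 114 in Cre, with Hspb8 at 20.7 and Hspb6 at 16.3 on average. In both GFP libraries Hspb1 lay below Hspd1 (77.5 and 81.0 CPM per kb), and in both Cre libraries it lay above Hspa9 (105 and 102 CPM per kb). The stress-inducible Hspa1b and Hspa1a stood at 6.56 and 1.44 CPM per kb. The plot of levels by class shows a few abundant genes and a tail of low ones among the small heat shock, Hsp70, Dnajb and Dnajc genes, while the Hsp90 and chaperonin genes were all above 40 CPM per kb.

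**Figure D1:**
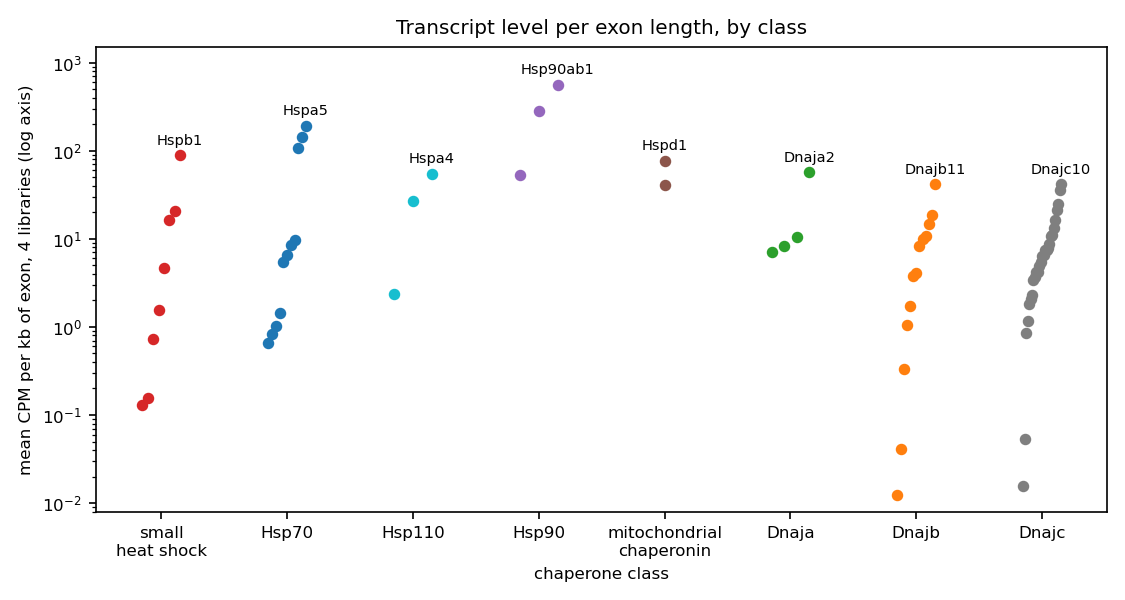
Mean level of each member with at least 1 count, in CPM per kb of exon over the 4 libraries (log axis), by chaperone class. The most abundant gene of each class is named, from Hsp90ab1 at 562 down to Dnajb11 and Dnajc10, both near 42 CPM per kb.

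A single member passed the test of Cre against GFP. Of the 73 members, 65 passed the low-count filter, and of these 1, Hspb1, was higher in Cre and 0 were lower at an adjusted p of 0.05 (edgeR). Over all 14483 tested genes 6.97% passed, 3.74% higher and 3.22% lower. DESeq2 and limma-voom also called Hspb1 higher and no member lower. At an unadjusted p under 0.05, edgeR had 7 members higher and 4 lower, against 20.9% of all tested genes, 10.6% higher and 10.4% lower, while DESeq2 had 4 higher and 0 lower. The median log2 fold change was -0.01 over the members and -0.0045 over all tested genes, with 32 members above 0 and 33 below, against 48.9% of all tested genes above 0. Both Cre libraries lay above both GFP libraries for 21 members and below for 17, where 24.5% and 25.5% of all tested genes did so, 50.0% in all. For 53 of the 65 members the whole 95% interval of the fold change lay within 1.5-fold either way, which held for 73.7% of all tested genes. As the plot of fold changes by member shows, most intervals crossed 0.

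**Figure D2:**
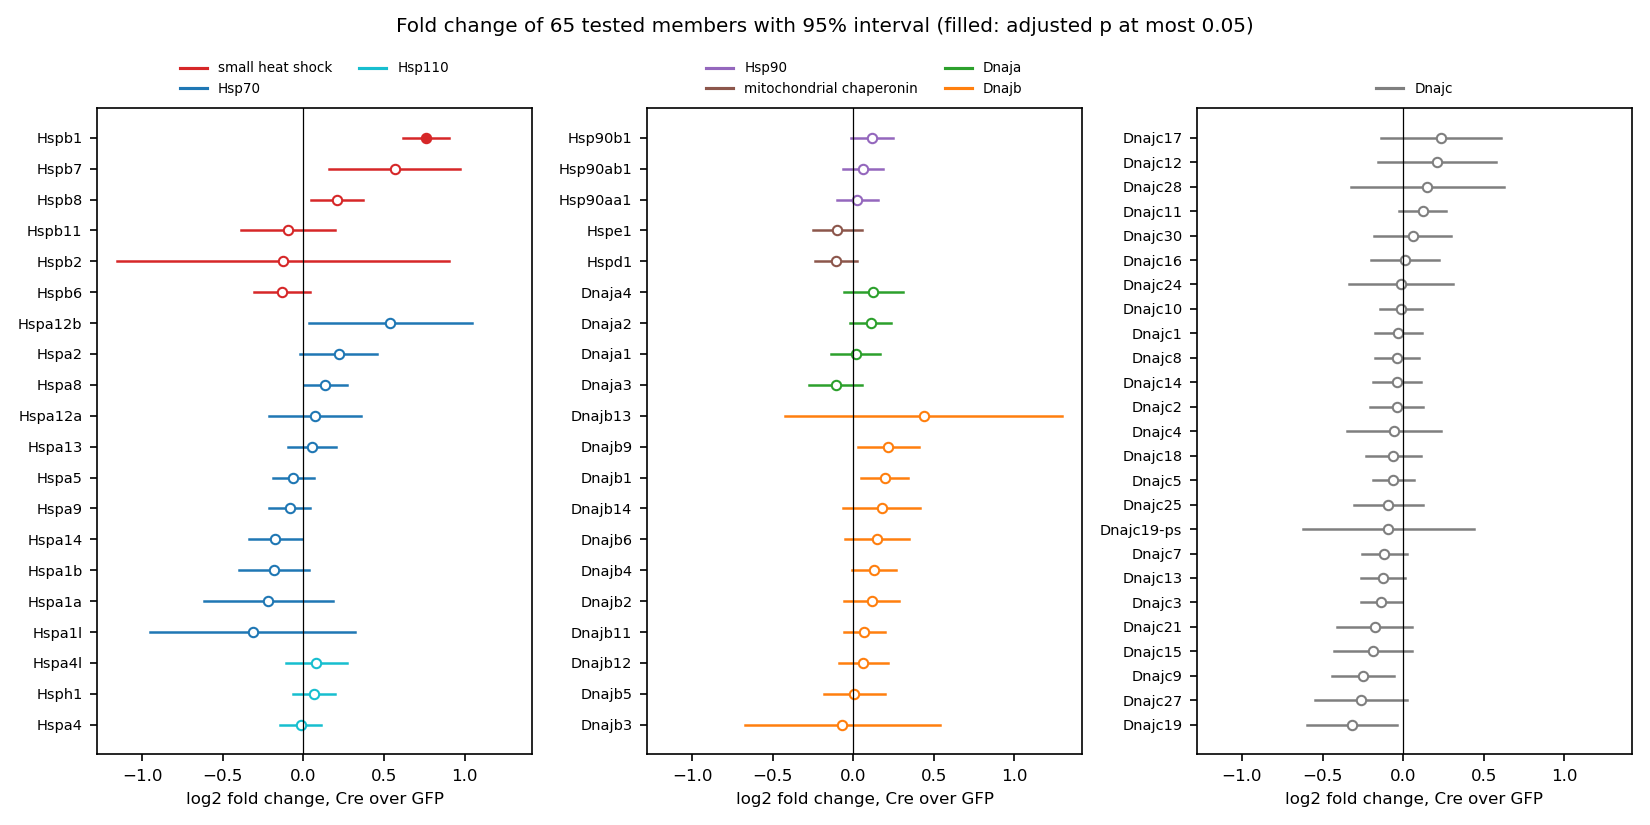
Log2 fold change (Cre over GFP, edgeR) of the 65 tested members, with the 95% interval as a line and classes by colour. Hspb1, at 0.76, is the only filled point, and most other intervals cross 0.

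Among small heat shock genes, Hspb1 rose. Hspb1 lies on chromosome 5 from 135887919 to 135889563 (GRCm38) and reached counts of 937 and 760 in the GFP libraries against 1644 and 1695 in the Cre libraries. Scaled, these were 71.3 and 64.7 CPM with GFP and 114 and 117 CPM with Cre. Both Cre libraries were well above both GFP libraries, and the replicates of each group lay close together. The means were 68.0 ± 4.66 and 115 ± 2.39 CPM (SD, n = 2 each), a 1.70-fold difference with a log2 fold change of 0.76 (standard error 0.07, 95% interval 0.62 to 0.90, edgeR adjusted p = 5.96e-09). Hspb1 had been singled out by an earlier analysis of these counts, so the value is a description and no independent support. A fit without a GFP library leaves 1 control and takes its spread from the Cre libraries, and calls were lost across all genes. The Hspb1 value was 0.84 when GFP replicate 1 was left out and 0.70 when GFP replicate 2 was, and it passed in neither fit. In a fit of messenger RNA rows alone, without 18S and without Lars2, the other transcript high in GFP replicate 2, it was 0.76 (adjusted p = 9.98e-11). Across the 13 alternatives to the main test Hspb1 lay between 0.70 and 0.84 and passed in 11, as the plot of its value by setting shows.

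**Figure D3:**
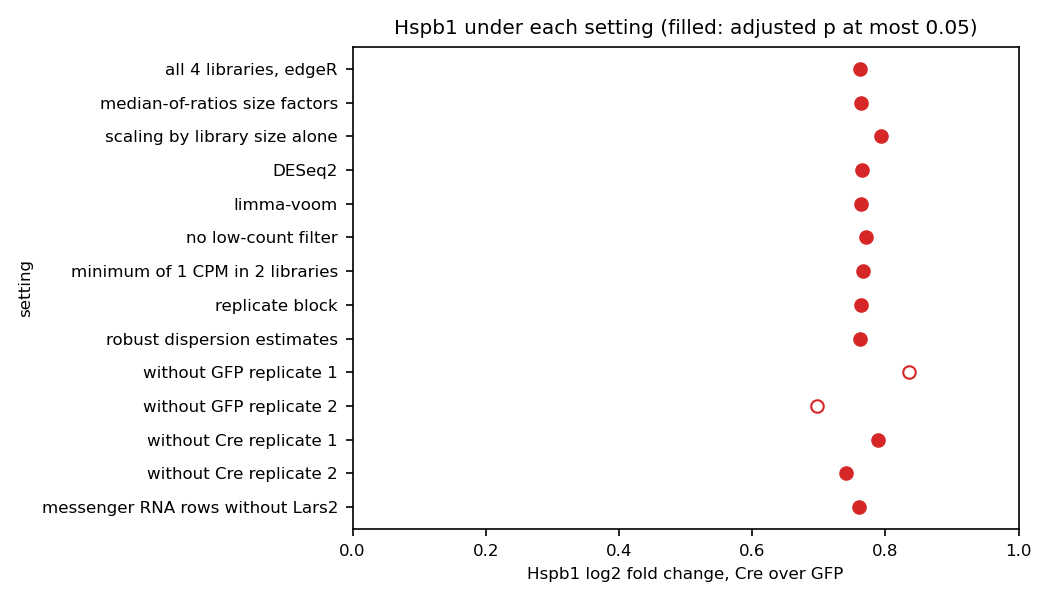
Log2 fold change of Hspb1 (Cre over GFP) under each setting of the analysis, filled where the adjusted p was at most 0.05. All 14 values lie between 0.70 and 0.84, and the open points are the fits without GFP replicate 1 and without GFP replicate 2.

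The other small heat shock genes did not pass. Hspb7, a small heat shock gene best known from heart and skeletal muscle, was nearest to the threshold, with 3.73 and 3.15 CPM in GFP and 4.64 and 5.60 CPM in Cre (log2 fold change 0.57, standard error 0.20, adjusted p = 0.0851). Hspb8, which works with the cochaperone Bag3 in selective autophagy, had 37.7 and 37.2 CPM in GFP and 43.1 and 43.4 CPM in Cre (0.21, adjusted p = 0.114). For both genes the Cre libraries were above the GFP libraries, as they were for 24.5% of all tested genes. Hspb6 (Hsp20), a partner of smooth muscle actin regulation, had 36.4 and 41.9 CPM in GFP and 36.7 and 34.5 CPM in Cre, and the groups overlapped (-0.13, adjusted p = 0.402). They overlapped also for Hspb11 (-0.09) and for Hspb2, which had between 6 and 11 counts per library and shares 30.2% of its exon bases with Cryab on the opposite strand. Of the striated muscle markers read beside Hspb7, Myod1 and Ckm had 0 counts in all libraries. The muscle actin gene Acta1 had 36.5 and 39.9 CPM in GFP and 56.6 and 59.0 CPM in Cre (log2 fold change 0.60, adjusted p = 4.44e-06), and it made up nearly all of the sum of the 6 markers, 39.5 and 42.6 CPM in GFP and 58.5 and 61.0 CPM in Cre. Des, the other tested marker, went the opposite way, with 2.66 and 2.47 CPM in GFP and 1.80 and 1.87 CPM in Cre (-0.49, adjusted p = 0.297), and Myog and Actc1 had at most 4 counts in any library. The part of this in the Hspb7 values was not tested.

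**Figure D4:**
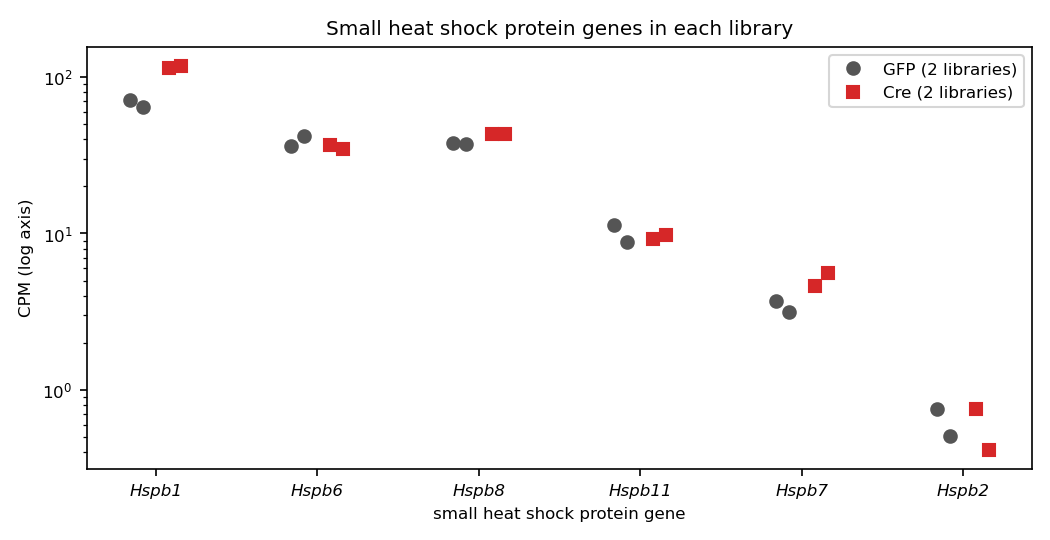
CPM (log axis) of the 6 tested small heat shock genes in each library, with GFP as circles and Cre as squares, 2 libraries each. The groups are apart for Hspb1, Hspb8 and Hspb7 and overlap for Hspb6, Hspb11 and Hspb2. Over all tested genes the groups are apart for 50.0%.

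Copies of Hspb1 elsewhere in the genome could share its reads. At 95% identity or more, 68.2% of its longest transcript matched the processed pseudogene Hsp25-ps1 and 51.3% matched Gm9817. Hsp25-ps1 reached counts of 33 and 22 in GFP against 77 and 32 in Cre, so it was high in Cre replicate 1 and its groups overlapped (log2 fold change 0.77, standard error 0.30, adjusted p = 0.122). Its value was 1.27 (adjusted p = 0.000267) without Cre replicate 2 and 0.01 (adjusted p = 0.995) without Cre replicate 1. Adding these counts to those of Hspb1 gave 73.8 and 66.6 CPM in GFP and 119 and 119 CPM in Cre, again a 1.70-fold difference. No row of the counts matched Gm9817, so it is not part of this sum. No exon of another gene overlapped those of Hspb1.

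Fold changes over all genes moved with base composition and length, and Hspb1 lies in the quintile of highest GC content and in that of shortest transcripts. Among 13825 of the 14483 tested genes with a GENCODE transcript, the median log2 fold change went from -0.075 in the quintile of lowest GC content to 0.09 in that of highest, and from 0.07 in the quintile of shortest transcripts to -0.07 in that of longest. Across these genes, which are not independent replicates and share the 4 libraries, Spearman's rho with the fold change was 0.304 for GC content and -0.222 for length. The longest Hspb1 transcript has 61.7% GC and 930 bases. The part of this trend in the Hspb1 value of 0.76 was not tested.

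No Hsp70 gene passed, and the strongly inducible pair Hspa1a and Hspa1b had lower means in Cre while Hspa8 had a higher one. Hspa8, the constitutive cytosolic Hsp70, had 546 and 616 CPM in GFP and 629 and 647 CPM in Cre (log2 fold change 0.14, standard error 0.07, adjusted p = 0.232). Its Cre libraries were above the GFP libraries, but the GFP libraries differed from each other by more than GFP replicate 2 did from either Cre library. Hspa5 had 826 and 830 CPM in GFP and 775 and 810 CPM in Cre (-0.06, adjusted p = 0.621), with a 95% interval of -0.19 to 0.06. For Hspa9 the values were 462 and 483 CPM in GFP and 453 and 438 CPM in Cre (-0.08, adjusted p = 0.483). Hspa1b, induced strongly by heat in most cells, had 19.0 and 20.1 CPM in GFP and 16.7 and 17.7 CPM in Cre (-0.18, 95% interval -0.40 to 0.03, adjusted p = 0.339). Its neighbour Hspa1a had 4.72 and 4.43 CPM in GFP and 4.29 and 3.59 CPM in Cre (-0.22, adjusted p = 0.582), which became -0.34 without Cre replicate 1 and -0.09 without Cre replicate 2. Hspa1a and Hspa1b are near-identical over 74.0% and 78.5% of their transcripts, so reads cannot be split between them with certainty, and 71.9% of the exon bases of Hspa1l (-0.31) lie over antisense transcripts.

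The remaining Hsp70 genes went either way. Hspa12b, an atypical Hsp70 gene known from endothelial cells, had 2.13 and 2.90 CPM in GFP and 2.91 and 4.35 CPM in Cre (log2 fold change 0.54, adjusted p = 0.200). The value was 0.22 without Cre replicate 2 and 0.33 without GFP replicate 1. The endothelial markers Pecam1, Cdh5, Kdr and Tek together summed to 7.92 and 6.81 CPM in GFP and 6.02 and 6.01 CPM in Cre. Of these markers 3 were tested, with 1 above 0 (0.07), 2 below (the lowest -0.81) and none passing. The part of this in the Hspa12b values was not tested. Hspa14, which associates with ribosomes, had 41.9 and 42.2 CPM in GFP and 35.7 and 38.8 CPM in Cre (-0.17, adjusted p = 0.212, and -0.11 without Cre replicate 1), with both Cre libraries below. Hspa2, the testis-enriched Hsp70, stood at 0.22 (adjusted p = 0.286), Hspa12a at 0.07 and Hspa13, of the endoplasmic reticulum, at 0.05.

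Hsp110 and Hsp90 genes differed little. Hsph1, an Hsp110 gene induced by heat, had 183 and 194 CPM in GFP and 195 and 200 CPM in Cre (log2 fold change 0.07, adjusted p = 0.603). Hspa4 had 310 and 301 CPM in GFP and 303 and 301 CPM in Cre (-0.02, adjusted p = 0.923), and Hspa4l stood at 0.08 (adjusted p = 0.683). Among the Hsp90 genes, Hsp90ab1 had 1696 and 1605 CPM in GFP and 1725 and 1717 CPM in Cre (0.06, 95% interval -0.07 to 0.19, adjusted p = 0.632). Hsp90b1, the client-restricted chaperone of integrins and Toll-like receptors, had 1120 and 1035 CPM in GFP and 1170 and 1167 CPM in Cre (0.12, adjusted p = 0.297). The heat-inducible Hsp90aa1 had 209 and 201 CPM in GFP and 209 and 209 CPM in Cre (0.03, adjusted p = 0.869), and its groups overlapped.

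The 2 genes of the mitochondrial chaperonin, which share the long element shown above, stood at similar values. Hspd1 had 205 and 214 CPM in GFP and 198 and 191 CPM in Cre (log2 fold change -0.11, 95% interval -0.23 to 0.02, adjusted p = 0.362). Hspe1 had 64.8 and 60.0 CPM in GFP and 60.1 and 56.5 CPM in Cre (-0.10, adjusted p = 0.488). Of the 8 members assigned to mitochondria (Hspa9, Hspd1, Hspe1, Dnaja3, Dnajc11, Dnajc15, Dnajc19 and Dnajc30), none passed, 2 were above 0 and 6 below, where 48.9% of all tested genes were above, and the median was -0.10, against -0.0045 over all tested genes. The Cre libraries were below the GFP libraries for 5 of them and above for 1, where 25.5% and 24.5% of all tested genes did so. Dnajc19, a J protein of the mitochondrial import motor, had 10.1 and 10.4 CPM in GFP and 8.30 and 8.15 CPM in Cre (-0.32, standard error 0.14, adjusted p = 0.172), the lowest log2 fold change of the members. The pseudogene row Dnajc19-ps, whose whole sequence matches Dnajc19, reached counts of 45 and 23 in GFP against 38 and 36 in Cre.

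Of the type A and B J proteins, which bind clients themselves, none passed, and most Dnajb genes had a positive fold change. Dnajb1 (Hsp40), the main heat-inducible partner of cytosolic Hsp70, had 55.6 and 54.7 CPM in GFP and 63.6 and 62.8 CPM in Cre (log2 fold change 0.20, standard error 0.07, adjusted p = 0.0995). Dnajb9 (ERdj4), a BiP partner induced by unfolded proteins in the endoplasmic reticulum, had 23.2 and 23.2 CPM in GFP and 27.3 and 26.6 CPM in Cre (0.22, adjusted p = 0.163). In both genes the replicates were close and the Cre libraries higher. Dnajb4 had 93.0 and 85.7 CPM in GFP and 99.7 and 96.1 CPM in Cre (0.13, adjusted p = 0.272), and Dnajb11 (ERdj3) had 132 and 131 CPM in GFP and 138 and 137 CPM in Cre (0.07, adjusted p = 0.587). Dnajb6, which suppresses aggregation of polyglutamine proteins and carries a 3-unit element, stood at 0.14 (adjusted p = 0.427). The others tested were Dnajb2 (0.11), Dnajb5 (0.01), Dnajb12 (0.06), Dnajb14 (0.18), Dnajb13 (0.44, at 9 to 19 counts) and Dnajb3 (-0.07). Dnajb13 shares 11.2% of its exon bases with Ucp2 on the opposite strand, which averaged 37.8 CPM. Of the Dnaja genes, Dnaja2 had 162 and 163 CPM in GFP and 174 and 177 CPM in Cre (0.11, adjusted p = 0.331). Dnaja1 stood at 0.01, Dnaja3 at -0.11 and Dnaja4, with 44.1% of its exon bases over Wdr61 on the opposite strand, at 0.12.

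Type C J proteins, a diverse class with specialised sites of action, leaned the other way without any passing. Dnajc9, a histone chaperone as well as a J protein, had 28.9 and 26.2 CPM in GFP and 23.5 and 23.0 CPM in Cre (log2 fold change -0.25, standard error 0.09, adjusted p = 0.108). Dnajc3 (p58IPK), a BiP partner and inhibitor of the kinase PERK, had 137 and 132 CPM in GFP and 124 and 121 CPM in Cre (-0.14, adjusted p = 0.209). Both Cre libraries were below both GFP libraries in these genes. Dnajc10, a reductase of the endoplasmic reticulum and the most abundant gene of the class, had 206 and 212 CPM in GFP and 207 and 207 CPM in Cre (-0.01, adjusted p = 0.940). Dnajc5, the cysteine string protein of secretory vesicles, stood at -0.06, Dnajc13, of endosomes, at -0.13, Dnajc7, which links Hsp70 and Hsp90, at -0.12, and Dnajc27 at -0.26 (adjusted p = 0.295). The highest values were those of Dnajc17 (0.24, adjusted p = 0.503) and Dnajc12 (0.21, adjusted p = 0.551), each with fewer than 90 counts per library. The rest of the 25 tested genes, Dnajc1, Dnajc2, Dnajc4, Dnajc8, Dnajc11, Dnajc14, Dnajc15, Dnajc16, Dnajc18, Dnajc21, Dnajc24, Dnajc25, Dnajc28 and Dnajc30, lay between -0.19 (Dnajc15) and 0.15 (Dnajc28).

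By count, 10 of 11 tested Dnajb genes were above 0 (median 0.13) and 19 of 25 tested Dnajc rows were below 0 (median -0.06), where 48.9% of all tested genes were above 0. The Cre libraries were above the GFP libraries for 7 Dnajb genes and below for 0. For the Dnajc rows they were above for 3 and below for 9. Over all tested genes 24.5% were above and 25.5% below. The difference between the classes was not tested. With scaling by library size alone, 10 of 11 Dnajb genes were above and 16 of 25 Dnajc rows below 0. Median GC content also differed, 50.9% for the tested Dnajb genes and 46.7% for the Dnajc rows, and its part in the difference was not tested.

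The remaining 8 members were too low to test. Dnajc5b and Dnajc5g, relatives of Dnajc5 with restricted expression, had 0 counts in every library, which allows up to 0.207 to 0.255 CPM. Hspb3, a small heat shock gene of muscle, had no counts in GFP and 5 and 2 in Cre, too few for a fold change. Dnajb7, Dnajb8, Dnajc6, Dnajc22 and Hspb9 had at most 3 counts in any library.

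The 13 members listed as classical heat-inducible genes gave 1 call, Hspb1, with 9 above 0, 4 below and a median of 0.06. That is 7.69% called higher, against 3.74% of all tested genes, of which 48.9% were above 0 and the median was -0.0045. The 1 call is the gene that an earlier analysis of these counts had singled out. Its share is thus a description and no evidence of an excess. Besides Hspb1 the list held Hspa1a, Hspa1b, Hspa8, Hsph1, Hspa4l, Hsp90aa1, Hsp90ab1, Hspd1, Hspe1, Dnaja1, Dnajb1 and Dnajb4. Hspa8, described above as constitutive, and Hsp90ab1 were both above 0 (0.14 and 0.06), and the list median is the Hsp90ab1 value. The list is thus not made up of strongly inducible genes alone. Of the 14 tested members with a 2-unit element in a promoter window, 7 were above 0, 7 below and 1, again Hspb1, passed. Of the 38 tested members with windows but no element, 18 were above 0, 20 below and 0 passed, and both sets are to be read against the same shares of all tested genes. None of the 4 genes with a 3-unit element passed. In the endoplasmic reticulum list (Hspa5, Hspa13, Hsp90b1, Dnajb9, Dnajb11, Dnajc1, Dnajc3 and Dnajc10), 4 were above 0, 4 below, none passed and the median was 0.02.

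The heat shock transcription factors were read next, as transcript levels, which do not measure trimer formation or binding. Hsf1, the main heat shock factor, had 43.4 and 41.2 CPM in GFP and 43.9 and 39.5 CPM in Cre (log2 fold change -0.02, 95% interval -0.19 to 0.14, adjusted p = 0.921), and the groups overlapped. Hsf2, which forms mixed trimers with Hsf1, stood at 0.04 (adjusted p = 0.881). Hsf4, a heat shock factor best known from the lens, rose from 4.19 and 3.66 CPM to 5.95 and 6.70 CPM (0.68, standard error 0.18, adjusted p = 0.0179). Of 7 genes of heat shock factors and their regulators 4 were tested, and Hsf4 was the one that passed (median 0.09). Over all tested genes 3.74% were called higher and the median was -0.0045. DESeq2 did not call Hsf4 (adjusted p = 0.281).

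The genes that work with the chaperones were read against the 3.74% of all tested genes called higher and the 3.22% called lower. Among 13 nucleotide exchange factors and regulators of Hsp70, Bag3, the stress-induced partner of Hspb8, rose from 106 and 114 CPM to 124 and 131 CPM (log2 fold change 0.22, adjusted p = 0.0400), none fell and the median was 0.04. Of 19 tested Hsp90 cochaperones, Cdc37, the adaptor for kinase clients, rose from 293 and 312 CPM to 350 and 358 CPM (0.23, adjusted p = 0.0252). The myosin chaperone gene Unc45a rose from 88.4 and 97.8 CPM to 107 and 114 CPM (0.25, adjusted p = 0.0235). These 2 were 10.5% of the tested Hsp90 cochaperones, none fell and the median was 0.02. No gene passed among 14 subunits of TRiC and prefoldin (median 0.01), 7 other stress chaperones (median 0.07) and 5 J-domain genes with other names (median 0.00). The small heat shock gene Cryab had 82.7 and 71.4 CPM in GFP and 80.3 and 92.9 CPM in Cre (0.17, adjusted p = 0.208, and between 0.06 and 0.28 with a library left out), and shares 17.0% of its exon bases with Hspb2. Hsf4, Bag3, Cdc37 and Unc45a did not pass when GFP replicate 1, GFP replicate 2 or Cre replicate 2 was left out (adjusted p from 0.172 to 0.429) or with no low-count filter (0.198 to 0.272). With Cre replicate 1 left out, Hsf4 passed (adjusted p = 0.0345) and the other genes did not (0.0680 to 0.165). DESeq2 did not call Bag3 (adjusted p = 0.159) or Unc45a (adjusted p = 0.123), and Bag3 was not called with the replicate number as a block (adjusted p = 0.0590) or with scaling by library size alone (adjusted p = 0.0658).

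**Figure D5:**
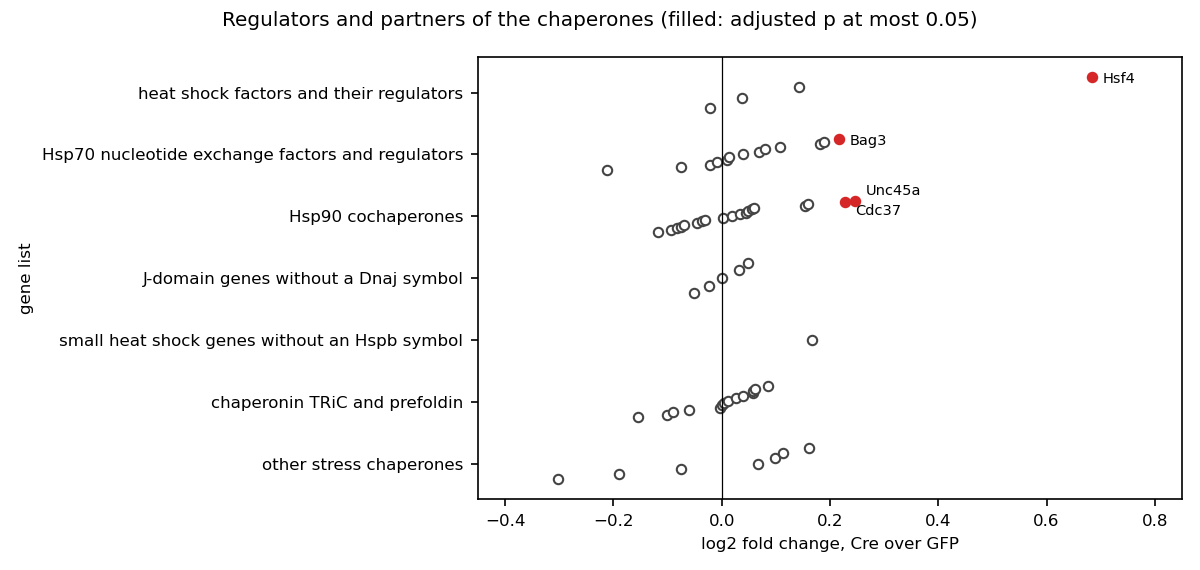
Log2 fold change (Cre over GFP, edgeR) of the tested regulators and partner genes, 1 point a gene, by list. The 4 filled points, Hsf4, Bag3, Cdc37 and Unc45a, passed an adjusted p of 0.05, and all 4 lie above 0.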

How the data were processed

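RNA sequencing was done on 4 libraries, 2 of GFP and 2 of Cre, made from 1 µg of total RNA with an Illumina TruSeq kit, per the labels. The authors deposited whole-number read counts per gene without normalization. HISAT2 was the aligner and GRCm38 the genome build named in the submitters' processing notes, and which counting program, annotation, strand setting and multiple-mapping rule applied was not given in the sources used here. Counts of genes with near-identical copies or overlapping partners are therefore uncertain: 28 of 73 members share exon bases with another gene of GENCODE M21, and 22 have a stretch of at least 100 bases at 95% identity elsewhere.

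Counts were tested across all genes with edgeR 4.0.16 in R 4.3.3 (filterByExpr with minimum count 10 and minimum total 15, 14483 of 44788 genes kept; TMM factors from 0.951 to 1.03; quasi-likelihood F-test on group; Benjamini-Hochberg adjustment over all tested genes, threshold 0.05). The script was tested on simulated data. Standard errors are the log2 fold change over the root of F. Levels per kb use the union of GENCODE exons. All members matched RefSeq and GENCODE by symbol or NCBI gene number, which also matched Samd13, Pfdn6 and Hikeshi to older symbols. Intervals and the floor of 3 counts cover counting error and library spread as modelled, since reads carry no molecular identifiers. Members, gene lists and the naming rule were chosen with earlier results of these data known. The rule named every member that passed, the most abundant per kb in each class, the classical heat-inducible members, those nearest the threshold, those too low to test, Hsf1, Hsf2, Setd2, list genes that passed and genes sharing exon bases with a member. Of the genes sharing exon bases, only some are given here. All other members given with values, among them those with an unadjusted p under 0.05, were chosen after their values were seen. No protein sequences were used here. Alternatives were other scalings, DESeq2 1.42.0, limma-voom (limma 3.58.1), other low-count filters, the replicate block, robust dispersion, an adjusted p of 0.01 and leaving out each library. A fit to messenger RNA rows without Lars2 was added after the data were seen.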

Additional observations from a re-analysis of the deposited data

How the results depend on the processing

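With 2 libraries a group, calls over all genes fell with any library left out, and the Hspb1 call was lost only without a GFP library. The number of members called higher was 1 with all libraries and between 0 and 1 when each library was left out, 0 without GFP replicate 1 or GFP replicate 2. The number called lower was 0 under every alternative run, with 4 members lower at an unadjusted p under 0.05 in edgeR, 4 in limma-voom and 0 in DESeq2. Over all genes edgeR called 1009, against 530 with scaling by library size alone, 376 in DESeq2, 30 without a low-count filter, 477 at an adjusted p of 0.01, and between 0 and 516 with a library left out. Without each library the log2 fold change of Hspb1 lay between 0.70 and 0.84 and that of Setd2 between -1.71 and -1.48. A library left alone in a group is assumed to vary like the other group. Members with values near 0 changed sign: with scaling by library size alone Dnajc10 stood at 0.0204, Hspa4 at 0.0155 and Hsf1 at 0.0101. With a library left out, values ranged from -0.0326 to 0.00901 for Dnajc10, -0.0359 to 0.00595 for Hspa4, -0.000494 to 0.163 for Hspa4l, -0.00283 to 0.0579 for Hsp90aa1, -0.0467 to 0.0839 for Dnaja1, -0.0921 to 0.0520 for Hsf1 and -0.0284 to 0.117 for Hsf2. The cause was not tested. With the replicate number as a block, Hspb1 stood at 0.76 and Setd2 at -1.60, 829 genes passed over all, and of the named genes Bag3 alone lost its call. The labels do not say that equal numbers mark paired samples, and the differences between replicates 1 and 2 in GFP and in Cre correlated at -0.0357 over 9426 genes.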
